A study of Mus musculus with 45 samples.

Results

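The mouse miR-181 family comprised mmu-mir-181a-5p, mmu-mir-181b-5p, mmu-mir-181c-5p and mmu-mir-181d-5p, 4 of the 476 miRNAs that the 6 tables of alveolar macrophage (AM) miRNAs list between them. The members are those that carry the family's name in the tables, and the choice of the family was made with earlier results of these data known. miR-181a-5p, miR-181b-5p and miR-181d-5p had a row in all 6 tables, and miR-181c-5p had one in the 4 tables of SP-A2 and KO mice and none in the tables of co-ex mice. Every row of a table was above 0 in at least 3 mice (SP-A2 males and co-ex males) or 4 mice (the other tables), so a rare member can lack a row where it was seen in fewer mice.

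The AM came from the bronchoalveolar lavage of 45 mice aged 12 weeks, 21 males and 24 females, and were profiled by small RNA sequencing. The labels give the strain as C57BL/6 and the study's methods give C57BL/6J for the background of the humanized lines. All mice lacked mouse surfactant protein A (SP-A), because the transgenic lines were made from the SP-A knockout. SP-A2 mice carried the human SP-A2 (1A0) variant, co-ex mice carried human SP-A1 and SP-A2 (6A2/1A0), and KO mice carried no SP-A gene. The females were synchronized in their oestrous cycle, and the promoter that drives the transgenes is not given in the sources used here. The mice breathed filtered air (FA) or ozone (O3, 2 ppm) for 3 h and were left to recover for 18 h. There were 3 FA and 3 O3 SP-A2 males, 4 FA and 3 O3 co-ex males, and 4 FA and 4 O3 mice in each remaining group, with a separate table for each genotype and sex. The comparisons ask whether the family responds to O3 and whether its level or response differs with sex or with the SP-A variant.

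A miRNA guides Argonaute to messenger RNAs that pair with its seed, the short stretch near its 5′ end, and lowers their translation or stability. The miR-181 members share their seed and are best known in lymphocytes, where miR-181a raises the sensitivity of the T cell receptor by lowering phosphatases, and in myeloid cells, where the family has been tied to inflammatory cytokine signalling. In the mouse they are made from 3 paired loci, with miR-181a and miR-181b each made from 2 of them, and miR-181c and miR-181d from 1.

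The mature sequences, read from RefSeq (GRCm38.p6), are printed 5′ to 3′ with the seed (bases 2 to 8) in capitals, because the values below depend on how well reads of such similar molecules can be told apart.
mmu-mir-181a-5p: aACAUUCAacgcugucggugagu
mmu-mir-181b-5p: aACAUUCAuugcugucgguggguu
mmu-mir-181c-5p: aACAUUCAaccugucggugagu
mmu-mir-181d-5p: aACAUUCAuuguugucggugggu
The 4 members have 1 seed, and no other mature miRNA of the RefSeq table has it. They differ in the part behind the seed and at the 3′ end. Counted from the 5′ end and written with the base of miR-181a-5p first, miR-181b-5p has the substitutions A9U, C10U and A21G and 1 base more at its 3′ end. miR-181c-5p is miR-181a-5p without the base at position 11. miR-181d-5p differs from miR-181b-5p by the substitution C12U and by a 3′ end that is 1 base shorter. Reads of miR-181a-5p and miR-181c-5p, and those of miR-181b-5p and miR-181d-5p, are thus separated by very few bases. How the counting treated mismatches is not given in the sources used here, so the values of the rare miR-181c-5p and miR-181d-5p are uncertain beside their abundant near copies.

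The other strand of the hairpins is shown for miR-181a, because its 2 forms differ in sequence and each belongs to 1 locus, unlike the shared miR-181a-5p. These 2 forms also differ by few bases, so the unknown treatment of mismatches limits the assignment of their reads too.
mmu-mir-181a-1-3p: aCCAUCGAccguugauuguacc
mmu-mir-181a-2-3p: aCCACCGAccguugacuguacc
In GENCODE M21 (GRCm38), Mir181a-1 lies on chromosome 1 from 137966455 to 137966541 (plus strand), 97 bases before Mir181b-1, which runs from 137966639 to 137966718. Both are within an intron of Gm4258 and overlap an exon of the lincRNA gene A430106G13Rik, all on the plus strand. Mir181a-2 lies on chromosome 2 from 38852735 to 38852810 (plus strand), and Mir181b-2 follows after 1019 bases, from 38853830 to 38853918. Both are on the strand opposite to Nr6a1, a nuclear receptor gene, within its introns. Mir181d (84178716 to 84178787) and Mir181c (84178873 to 84178961) lie 85 bases apart on the minus strand of chromosome 8, within an intron of Nanos3. The genome build behind the deposited tables is not given in the sources used here, and these coordinates are those of the annotation.

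Between 137965 and 2884013 reads (median 766213) fell on listed miRNAs in a mouse. The value of a mouse is its read count divided by a size factor, so the number of reads behind each value could be recovered. In bulk AM, fewer cells of a type and less RNA per cell cannot be told apart. miRNAs listed as markers of other cell types were also read, and whether they came from other cells was not tested. Over all tables, 7 of 8 mesenchymal marker miRNAs (miR-143-3p and others) were higher after O3. So were 6 of 10 epithelial ones (the miR-200 group and others) and the 1 endothelial one tested. By contrast, 0 of 6 macrophage and myeloid markers, 0 of 2 lymphoid and 0 of 4 erythroid ones passed in either direction. The test was limma at a false discovery rate (FDR) of 0.1. No marker of the macrophage and myeloid list, which holds the defining myeloid miR-223-3p, was at 0 in all mice of a group. Within tables, 1 of the 6 markers of that list passed in SP-A2 males (miR-142a-3p, lower after O3), and 0 in each other table.

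miR-181a-5p carried most of the family. It took a median of 87.3% of the family's reads in a mouse (range 63.2% to 97.4%), against 11.9% (2.64% to 36.7%) for miR-181b-5p. The rare members reached at most 3.57% (miR-181c-5p) and 4.52% (miR-181d-5p). Together the 4 members held a median of 0.614% of the reads on listed miRNAs (0.177% to 1.16%). By reads, miR-181a-5p ranked between 22 and 55 among the miRNAs of a mouse and miR-181b-5p between 51 and 167. These shares compare molecules of nearly the same length, on reads and not on values per length.

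The depth behind the members differed in the same way. Every mouse had at least 532 reads of miR-181a-5p (median 3529) and at least 85 of miR-181b-5p (median 489). miR-181c-5p had a median of 19 reads over the 30 mice of its 4 tables and was at 0 in 6 of them. miR-181d-5p had a median of 1 read over 45 mice, was at 0 in 18 and had 1 to 3 reads in 11 more. A count of 0 allows up to 3 reads, which is worth a normalised value between 1.07 and 21.8, depending on the mouse. These limits cover counting error only.

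miR-181a-5p, the main member, was lower after O3 in the co-ex mice of both sexes by its group means, and no within-table difference passed the test. In co-ex females the normalised values were 3343, 5948, 3702 and 5849.5 after FA, and 2481, 2839, 3099 and 2602 after O3. All O3 mice lay below all FA mice, with means of 4711 ± 1380.2 (SD, n = 4) and 2755 ± 273 (SD, n = 4). In co-ex males the values were 5312, 4301, 3266 and 5394 after FA, and 2499, 2139 and 3279 after O3. There the groups met, because FA mouse 3 fell just below O3 mouse 3. On the log2(value + 1) scale the difference between O3 and FA was -0.73 (SE 0.46, limma adjusted p = 0.596) in co-ex females and -0.79 (SE 0.51, limma adjusted p = 0.881) in co-ex males. The median over all miRNAs of these tables was 0.31 and 0.64 on this scale, and 0.02 and -0.04 with edgeR on the recovered reads, where miR-181a-5p stood at -0.91 and -0.92. Beside this, mesenchymal markers differed in co-ex females: 3 of 7 listed passed the test upward there, and their summed value ran from 645.7 to 3815 after FA and from 6819 to 14930.4 after O3. Epithelial markers had higher estimates after O3 for 8 of 8 listed in co-ex females, of which 0 passed, with a median log2 difference of 3.40 and sums of 839 to 5893 after FA and 5934 to 15239.9 after O3. In co-ex males 0 of 8 mesenchymal markers passed, with sums of 2781 to 9837 after FA and 8304 to 18083 after O3. The epithelial sums there ran from 2414 to 10744 after FA and from 10397 to 12251 after O3, and 0 of 9 passed. The erythroid markers of co-ex males summed to 27146.5 to 603969 after FA and 76765 to 516284 after O3, and 0 of 4 passed. Those of co-ex females summed to 2007 to 112684 after FA and 34932 to 68159.5 after O3, and 0 of 2 passed. The part of these miRNAs in the miR-181a-5p values was not tested.

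In SP-A2 and KO mice the FA and O3 values of miR-181a-5p overlapped in all 4 tables. SP-A2 males gave 6847, 9529.6 and 4519 after FA and 5659, 5136 and 5670.4 after O3, the FA mice spreading on both sides of the O3 mice. SP-A2 females gave 3046, 5569.7, 4492 and 5066 after FA and 3057, 5142, 4078 and 5347 after O3, nearly the same range. KO males gave 5596, 4035, 5895 and 4812 after FA, and 3949, 3513, 6139 and 4191 after O3. KO females gave 4202, 3119, 2705 and 2636 after FA, and 2156, 3860.3, 4631 and 2526 after O3. In both KO tables the highest value was that of an O3 mouse, and so was the lowest. The log2 differences were -0.28 (SE 0.37) in SP-A2 males, -0.04 (SE 0.30) in SP-A2 females, -0.21 (SE 0.33) in KO males and 0.01 (SE 0.44) in KO females.

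miR-181b-5p, made beside miR-181a-5p at both of its loci, did not follow one direction. In SP-A2 males it was higher after O3, with 514, 743 and 499 after FA and 778, 754 and 754 after O3, and all O3 mice lay above all FA mice. The 3 O3 mice agreed closely (mean 762 ± 13.9, SD) beside the FA mice (586 ± 137, SD), and the log2 difference was 0.40 (SE 0.37, limma adjusted p = 0.610). In co-ex females it was lower after O3 by its mean, with 697, 485, 1494 and 833 after FA and 199, 76.9, 452 and 650.4 after O3. Only O3 mouse 4 reached into the FA range, and the log2 difference of -1.63 (SE 0.81) had an unadjusted p of 0.0583 and a limma adjusted p of 0.476. KO males also had lower values in 3 of 4 O3 mice, with 1059, 505, 835 and 1085 after FA and 406, 1105, 456 and 439 after O3. O3 mouse 2 stood above all FA mice there, and the log2 difference was -0.61 (SE 0.51).

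In the remaining tables the values of miR-181b-5p overlapped widely. SP-A2 females gave 217, 535, 587 and 692 after FA and 488, 623, 463 and 541 after O3 (log2 difference 0.17, SE 0.42). Co-ex males gave 1119, 1354, 329 and 1179.7 after FA and 1346, 414 and 1053 after O3 (-0.06, SE 0.82). KO females gave 548, 372, 274 and 1530.4 after FA and 382, 563, 664 and 347 after O3 (-0.20, SE 0.68). Single mice set the spread: FA mouse 4 of the KO females held nearly 3 times the next FA value.

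**Figure D1:**
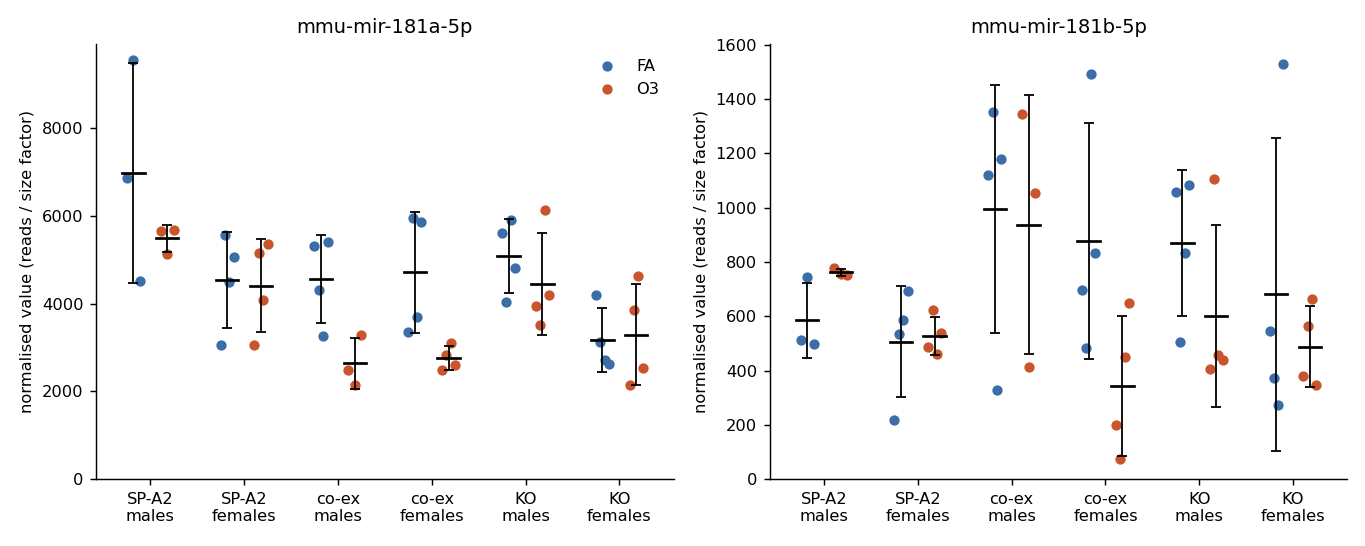
Normalised values (reads divided by the size factor of the mouse) of mmu-mir-181a-5p (left) and mmu-mir-181b-5p (right) by table, with 1 point for each mouse, FA in blue and O3 in orange. Horizontal lines are means and bars are 1 SD. The O3 mice lie below all FA mice for mmu-mir-181a-5p in co-ex females (2481 to 3099 against 3343 to 5948) and above them for mmu-mir-181b-5p in SP-A2 males (754 to 778 against 499 to 743).

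miR-181c-5p, from the locus in Nanos3, had few reads, and its values above 100 were all in O3 mice: 3 KO males, 1 KO female and 1 SP-A2 female. KO males had 28, 26, 14 and 0 reads after FA and 63, 68, 119 and 0 after O3, which are normalised values of 9.94, 31.5, 9.53 and 0 against 125, 151, 200.4 and 0. Leaving aside O3 mouse 4, which had no read of it among 180625 reads on listed miRNAs, the O3 mice were above all FA mice. Depth differed with exposure among the KO males, with 180625 to 579220 reads on listed miRNAs after O3 and 720987 to 2884013 after FA. The part of depth was not tested. KO females had 33, 2, 0 and 0 reads after FA and 18, 60, 219 and 20 after O3, or 24.4, 1.69, 0 and 0 against 24.0, 42.6, 196 and 20.6. FA mouse 1 alone reached the O3 range there. The log2 difference was 2.50 (SE 2.14, limma adjusted p = 0.558) in KO males and 4.01 (SE 1.89, unadjusted p = 0.0483, limma adjusted p = 0.628) in KO females, on the log2(value + 1) scale. With so few reads this value depends on the pseudocount, and in KO females it was 5.80 with a pseudocount of 0.1 and 2.03 with one of 10. In KO males, where 5.18% of all miRNAs were called, 4 of 7 mesenchymal markers passed upward. The sums of these markers were 688 to 6841 after FA and 9374 to 19029 after O3. In KO females 0 of 7 passed, with sums of 875 to 8559 after FA and 4070.4 to 16835 after O3. Their part in the miR-181c-5p values was not tested.

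In SP-A2 mice miR-181c-5p overlapped between exposures. Males gave 31.4, 36.1 and 15.3 after FA and 6.09, 24.8 and 62.2 after O3 (log2 difference -0.25, SE 1.07). Females gave 10.4, 33.1, 0 and 24.0 after FA and 11.5, 22.4, 111 and 0 after O3 (0.44, SE 1.67). The highest value in each sex was that of an O3 mouse.

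miR-181d-5p, its neighbour in Nanos3, was at or near 0 in many mice and high in a few, and only among SP-A2 males was no mouse at 0. SP-A2 males had 12, 5 and 8 reads after FA and 17, 11 and 10 after O3 (log2 difference of values -0.09, SE 1.05). SP-A2 females had 5, 0, 1 and 0 reads after FA and 2, 0, 21 and 0 after O3 (1.04, SE 1.28). In co-ex mice of each sex a single FA mouse held nearly all reads: 160 reads in FA male 2 against 0, 0 and 1 in the other FA males, and 255 in FA female 4 against 1, 0 and 0. After O3 the co-ex males had 1, 0 and 0 reads and the co-ex females 16, 0, 0 and 1, so the log2 differences of -1.57 (SE 1.41) and -1.15 (SE 1.70) rest on those 2 FA mice. KO males, with fewer total reads after O3, had 1, 0, 0 and 2 reads after FA and 56, 0, 15 and 1 after O3. That difference was 2.96 on the log2(value + 1) scale (SE 1.42, unadjusted p = 0.0588, limma adjusted p = 0.347), 1.40 with a pseudocount of 10 and 4.23 with one of 0.1. KO females had 35, 0, 0 and 1 reads after FA and 1, 77, 0 and 33 after O3 (1.53, SE 1.69).

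**Figure D2:**
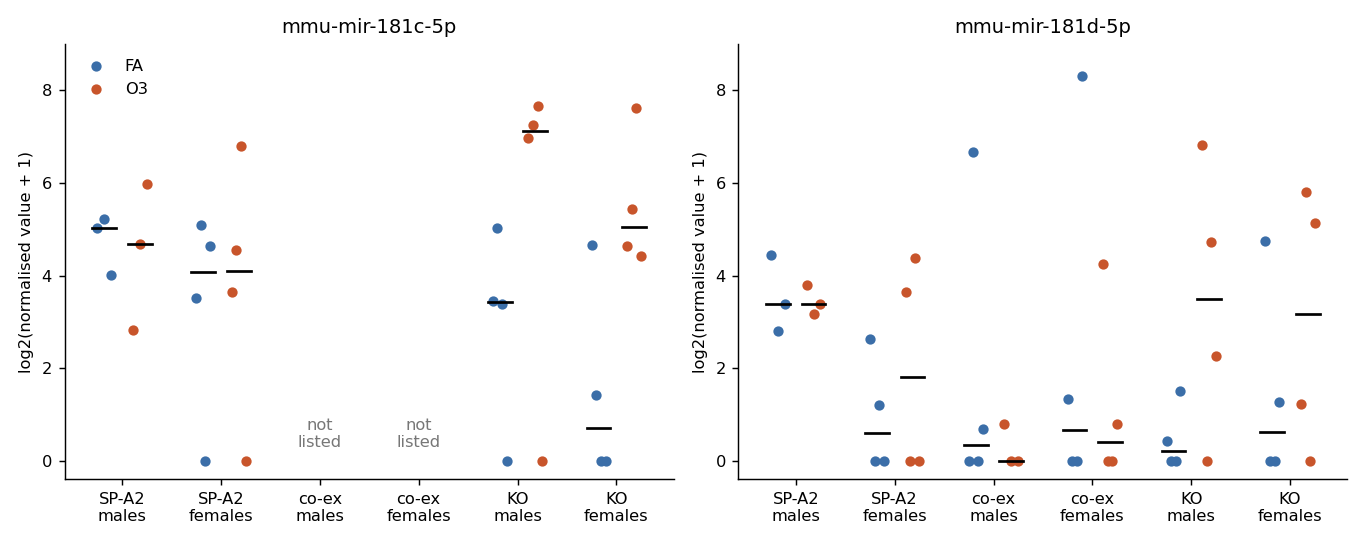
log2(normalised value + 1) of mmu-mir-181c-5p (left) and mmu-mir-181d-5p (right) by table, with 1 point for each mouse, FA in blue and O3 in orange, and medians as horizontal lines. Many mice sit at 0, mmu-mir-181c-5p has no row for co-ex mice, and the KO mice hold most of the higher O3 values.

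No member passed the test between O3 and FA within a table. Of 22 tests of a member in a table, 0 passed with limma at an FDR of 0.1, with 1 at an unadjusted p under 0.05. On the recovered reads edgeR gave 0 calls (1 at an unadjusted p under 0.05) and DESeq2 gave 0 (3 at an unadjusted p under 0.05, with 4 adjusted p-values not given by the tool). Over all listed miRNAs limma called 5.18% in KO males, 1.38% in co-ex females, 1.07% in SP-A2 females, 0.67% in SP-A2 males, and 0% in the tables of co-ex males and KO females. The 2 cases of FA and O3 mice that did not overlap (miR-181a-5p in co-ex females, miR-181b-5p in SP-A2 males) stand beside 7.93% and 22.3% of all miRNAs of those tables that did not overlap in either direction. In the other tables, where no member was free of overlap, that share was 8.84% (KO males), 7.26% (co-ex males), 5.09% (SP-A2 females) and 4.18% (KO females).

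Over all tables, with table as a term, miR-181a-5p differed by -0.33 between O3 and FA on the log2 scale (SE 0.14, unadjusted p = 0.0257) and did not pass after adjustment (limma adjusted p = 0.138). miR-181b-5p differed by -0.36 (SE 0.27, limma adjusted p = 0.475), miR-181c-5p by 1.80 over its 4 tables (SE 0.90, limma adjusted p = 0.222) and miR-181d-5p by 0.53 (SE 0.67, limma adjusted p = 0.756). Thus 0 of 4 members passed, beside 14.7% of the 381 miRNAs tested (56, of which 50 were higher after O3). The median over all 381 was 0.16, so that miR-181a-5p and miR-181b-5p lay below it and miR-181c-5p and miR-181d-5p above it.

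The position of miR-181a-5p against the threshold depended on scaling and on single mice. It passed with a second median-ratio scaling of each table (-0.44, limma adjusted p = 0.0421), which moved the median of all miRNAs to 0.06. It also passed without the table of KO females (-0.41, limma adjusted p = 0.0949), without O3 mouse 3 of the KO females (-0.37, limma adjusted p = 0.0798) or without FA mouse 1 of the SP-A2 females (-0.37, limma adjusted p = 0.095). miR-181c-5p passed without O3 mouse 4 of the KO males (2.21, limma adjusted p = 0.0860), and its value was 1.00 without the table of KO females.

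A fit restricted to both sexes of 1 genotype, chosen after seeing the data, was made for each genotype. The differences between these fits were not tested. For miR-181a-5p the log2 difference was -0.76 in co-ex mice (SE 0.28, limma adjusted p = 0.173), -0.14 in SP-A2 mice (SE 0.22) and -0.10 in KO mice (SE 0.24). For miR-181b-5p it was -0.91 in co-ex mice (SE 0.59), 0.27 in SP-A2 mice (SE 0.27) and -0.40 in KO mice (SE 0.40). miR-181c-5p stood at 3.26 in KO mice (SE 1.28, limma adjusted p = 0.189) and 0.14 in SP-A2 mice (SE 1.05). miR-181d-5p stood at 2.25 in KO mice (SE 1.09), 0.56 in SP-A2 mice (SE 0.85) and -1.35 in co-ex mice (SE 1.22).

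**Figure D3:**
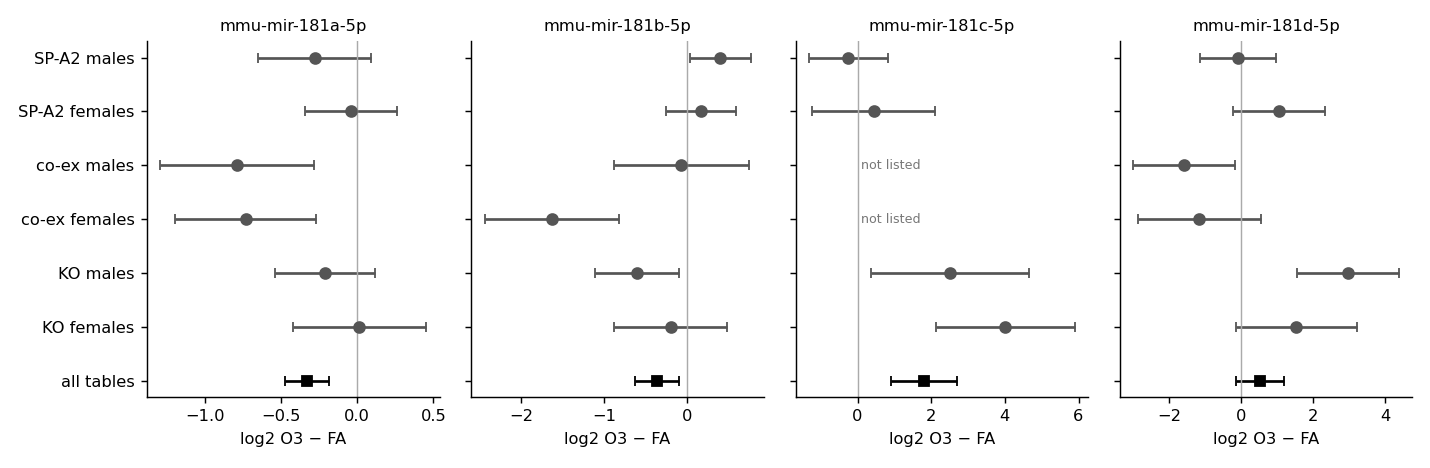
Difference between O3 and FA of log2(normalised value + 1) for the 4 members in each table (circles) and over all tables with table as a term (squares). Bars are 1 standard error of the limma fit and the scales of the panels differ. The values of mmu-mir-181a-5p run from -0.79 to 0.01, and those of mmu-mir-181c-5p from -0.25 to 4.01.

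Whether the response differed between sexes or genotypes was tested directly, as the difference of the O3 response between 2 tables. Of 31 such tests of a member over 9 pairs of tables, 0 passed with limma and 0 had an unadjusted p under 0.05. Among all miRNAs 0.282% passed between the sexes of SP-A2 mice, 0.312% between SP-A2 and KO males, and 0% in each of the other 7 pairs. For miR-181a-5p the differences ran from -0.75 (co-ex females minus KO females, SE 0.58, limma adjusted p = 0.916) to 0.69 (SP-A2 females minus co-ex females, SE 0.49, limma adjusted p = 0.833). Between males and females the response of miR-181a-5p differed by -0.24 in SP-A2 mice (SE 0.46), -0.06 in co-ex mice (SE 0.60) and -0.23 in KO mice (SE 0.48). The lowest unadjusted p-values were those of miR-181d-5p, co-ex males minus KO males (-4.53, SE 2.17, unadjusted p = 0.0512, limma adjusted p = 0.666), and of miR-181b-5p, SP-A2 females minus co-ex females (1.80, SE 0.91, unadjusted p = 0.0622, limma adjusted p = 0.833).

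The tables were normalised separately, so levels were compared between them on the recovered reads, scaled by the trimmed mean of M-values (TMM). Values are given as RPM, the reads out of every 1e+06 on the 206 miRNAs listed in every table. The scale of these values was set over all 45 mice. Tests of level scaled each pair of tables on the miRNAs listed in both. In the order of group means over all 45 mice, miR-181a-5p was highest in SP-A2 males after FA (7788 ± 2741, SD, n = 3) and in KO males after FA (6621 ± 1732, SD, n = 4). SP-A2 females after FA (5949 ± 1263), SP-A2 males after O3 (5657 ± 304), co-ex females after FA (5465 ± 1716), SP-A2 females after O3 (5061 ± 1661) and co-ex males after FA (4986 ± 1234) formed the middle. KO males after O3 (4305 ± 966), KO females after FA (4102 ± 1138) and KO females after O3 (3976 ± 1580) came next. The co-ex mice after O3 were lowest, with 2984 ± 425 in females (SD, n = 4) and 2582 ± 411 in males (SD, n = 3). Each group overlapped with the next in this order. The 2 lowest groups were the same without TMM scaling.

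**Figure D4:**
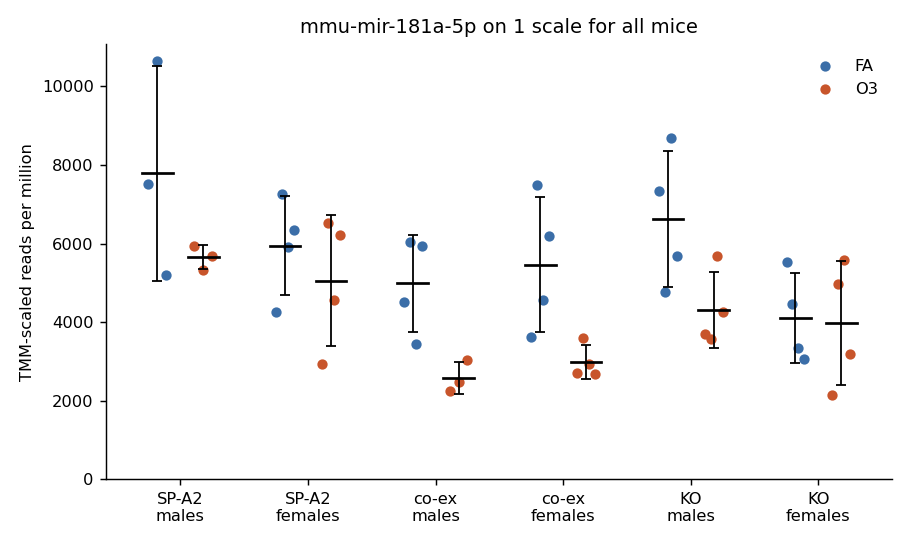
TMM-scaled RPM of mmu-mir-181a-5p, on 1 scale for all 45 mice, by table and exposure, with 1 point for each mouse. Horizontal lines are means and bars are 1 SD. The O3 mice of the co-ex tables (2240 to 3596) are the lowest groups, and the SP-A2 males after O3 lie close together (5337 to 5942).

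miR-181b-5p had another order. It was highest in KO males after FA (1125 ± 357, SD, n = 4) and co-ex males after FA (1125 ± 650.2, SD, n = 4), and lowest in co-ex females after O3 (354 ± 253, SD, n = 4). Each of the 12 groups overlapped with the next. The co-ex males after O3 (886 ± 372, SD, n = 3), lowest of all groups for miR-181a-5p, were the fourth highest for miR-181b-5p.

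Of 62 tests of a member's level between tables after the same exposure, 1 passed at an FDR of 0.1 with limma. miR-181a-5p was higher in SP-A2 males than in co-ex males after O3, by 1.36 on the log2 scale (SE 0.43, unadjusted p = 0.00567, limma adjusted p = 0.0656). On the scale of all 45 mice the SP-A2 males stood at 5942, 5337 and 5691 TMM-scaled RPM and the co-ex males at 2240, 2467 and 3038, without overlap. The test scaled these 2 tables on their own, so the printed values do not give its 1.36 exactly. This pair of groups differed widely at large, with 10.6% of its miRNAs called after O3 and 24.2% after FA. The macrophage and myeloid markers summed to 61449 to 224645 TMM-scaled RPM in the SP-A2 males after O3 and to 21597 to 65159 in the co-ex males, and the erythroid ones to 1434 to 12132 and 71120 to 595500. Their part in the difference was not tested. The call was lost with a filter on low values (1.05, limma adjusted p = 0.178) and in 10 of 13 fits that each left out 1 mouse of the 2 tables (1.10 to 1.55, limma adjusted p from 0.0448 to 0.419). The mice whose absence moved the adjusted p most were O3 mouse 1 of the SP-A2 males (1.10, limma adjusted p = 0.419), O3 mouse 2 of the co-ex males (1.13, limma adjusted p = 0.328) and O3 mouse 2 of the SP-A2 males (1.38, limma adjusted p = 0.296).

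The other differences in level of miR-181a-5p between genotypes did not pass. After FA, SP-A2 males exceeded co-ex males by 0.63 (SE 0.40) and KO males by 0.32 (SE 0.34), and SP-A2 females exceeded co-ex females by 0.15 (SE 0.35) and KO females by 0.57 (SE 0.37). After O3, SP-A2 females exceeded co-ex females by 0.80 (SE 0.35, unadjusted p = 0.034, limma adjusted p = 0.721) and KO females by 0.33 (SE 0.37), and SP-A2 males exceeded KO males by 0.64 (SE 0.34). Co-ex males minus KO males gave -0.33 (SE 0.36) after FA and -0.69 (SE 0.39) after O3, and co-ex females minus KO females gave 0.44 (SE 0.45) and -0.39 (SE 0.45). The shares of all miRNAs called were 5.3% for SP-A2 against co-ex females after FA and 0% after O3. For SP-A2 against KO males they were 0.938% after FA and 0% after O3, for co-ex against KO males 2.26% and 1.81%, and for both remaining pairs of females 0%.

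Between the sexes, no member passed. For miR-181a-5p, males minus females gave 0.33 after FA (SE 0.34) and 0.21 after O3 (SE 0.34) in SP-A2 mice, -0.19 (SE 0.43) and less than 0.01 in size (SE 0.47) in co-ex mice, and 0.65 (SE 0.38) and 0.14 (SE 0.38) in KO mice. For miR-181b-5p the largest was in co-ex mice after O3 (1.77, SE 0.86, unadjusted p = 0.0539, limma adjusted p = 0.991). Of all miRNAs, 0.282% passed between the sexes of SP-A2 mice after FA and 1.41% after O3, and 0% in co-ex and KO mice. The rare miR-181d-5p had unadjusted p-values under 0.05 in males for SP-A2 minus co-ex after O3 (3.42, SE 1.52, limma adjusted p = 0.214) and for SP-A2 minus KO after FA (3.23, SE 1.35, limma adjusted p = 0.513). Without FA mouse 2 of the co-ex males, which held 160 of their reads, the former passed (3.35, SE 0.81, limma adjusted p = 0.0299). That mouse is in neither of the O3 groups compared, and leaving it out mainly lowered the SE of the fit.

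The ratio of miR-181a-5p to miR-181b-5p reads does not depend on scaling, because both counts come from 1 mouse. Its median over 45 mice was 7.28, with a range of 1.72 to 36.9. In SP-A2 males it lay between 9.06 and 13.3 after FA and between 6.81 and 7.52 after O3, without overlap. The difference of -0.68 in the mean log2 ratio gave p = 0.10 in a two-sided exact permutation test, the smallest p that 3 against 3 mice allow, and 0.583 after adjustment over the 6 tables. The other tables overlapped, and their differences were -0.72 (co-ex males), -0.22 (SP-A2 females), 0.21 (KO females), 0.40 (KO males) and 0.91 (co-ex females). Their exact p-values ran from 0.343 to 1. The smallest possible is 0.0286 for 4 against 4 mice and 0.0571 for the 4 against 3 co-ex males. The ratio spread more in co-ex females after O3 (4.00 to 36.9) than in any other group.

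**Figure D5:**
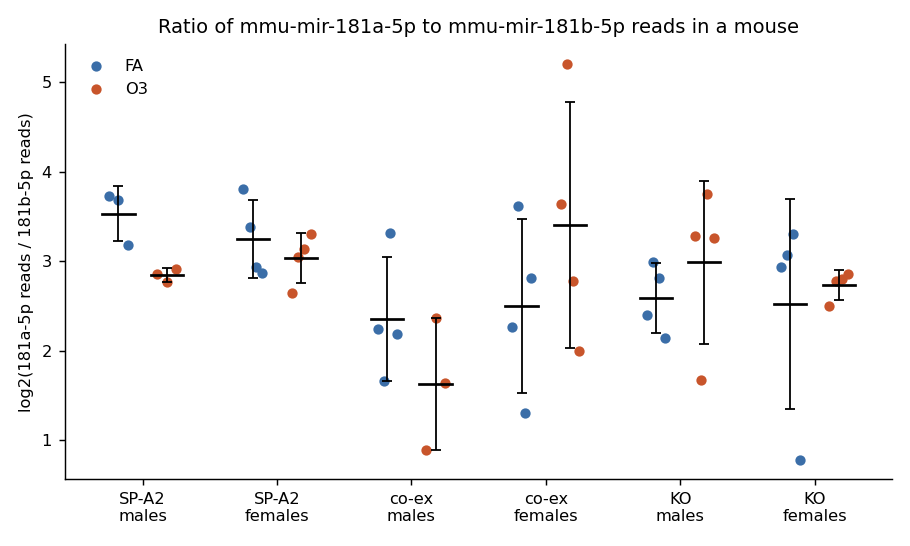
log2 ratio of mmu-mir-181a-5p to mmu-mir-181b-5p reads by table and exposure, with 1 point for each mouse. Horizontal lines are means and bars are 1 SD. The SP-A2 males after O3 lie close together below the FA males (mean log2 ratios 2.85 and 3.53), and the other tables overlap.

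The opposite strands of the hairpins were sparse. miR-181a-2-3p, from chromosome 2, had a row in all 6 tables, miR-181a-1-3p, from chromosome 1, in 4, and miR-181b-1-3p in 1 (SP-A2 males). Over the 30 mice of the 4 tables with both miR-181a strands there were 4576 reads of miR-181a-2-3p and 1040 of miR-181a-1-3p, and 25 mice had more of the former. SP-A2 males were the exception by table, with 327 and 343 reads, while co-ex females had 2817 and 283. Of the 2817 reads, 1905 were from O3 mouse 2. Between O3 and FA, 0 of the 11 tests of these strands within tables passed with limma (0 at an unadjusted p under 0.05). Over all tables the log2 difference was -1.58 for miR-181a-1-3p (SE 0.91, limma adjusted p = 0.293) and 0.27 for miR-181a-2-3p (SE 0.62, limma adjusted p = 0.855).

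The miRNAs that varied most like miR-181a-5p were sought among the 193 others listed in every table with a mean of at least 10 in each, by Pearson's r of log2(value + 1) centred on each table over the 45 mice. They were miR-99b-5p (r = 0.65), miR-365-3p (0.51), miR-501-3p (0.49), miR-1298-5p (0.44) and miR-342-3p (0.42, on the lymphoid marker list), against a median r of -0.10 over all 193. miR-181b-5p came 9th for miR-181a-5p (r = 0.37), although both are made from shared loci. Most like miR-181b-5p were miR-155-5p, an inflammatory miRNA of macrophages (r = 0.57), miR-99b-3p (0.50), miR-466q (0.48), miR-191-5p (0.42) and miR-501-3p (0.40), and miR-181a-5p came 6th. These are descriptions, and all points share the scaling of their mouse. Centred on group means, which takes out the exposure, miR-99b-5p was first for miR-181a-5p (0.69) and miR-155-5p for miR-181b-5p (0.64). On that scale the r between miR-181a-5p and miR-181b-5p was 0.26, which placed them 23rd and 21st for each other, and miR-342-3p moved from 5th to 24th for miR-181a-5p.

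Of 14 other miRNAs known for tuning immune signalling, 12 were tested over all tables, of which 1 was higher and 1 lower after O3, a share near the 14.7% of all miRNAs. The median log2 difference of the 12 was -0.07 beside 0.16 over all miRNAs. The higher one was miR-125b-5p (1.81, SE 0.33, limma adjusted p = 8.64e-05), which is also on the mesenchymal list, and the lower one let-7e-5p (-0.41, SE 0.14, limma adjusted p = 0.0533). Within tables, miR-142a-3p, a miRNA of blood cells that is also on the macrophage and myeloid list, fell in SP-A2 males (-3.28, SE 0.40, limma adjusted p = 0.00435). In SP-A2 females miR-155-5p, induced on macrophage activation, fell (-2.42, SE 0.49, limma adjusted p = 0.0454). miR-125b-5p rose in SP-A2 females, co-ex females and KO males (2.60, 2.63 and 2.33). Of the calls within tables only that of miR-142a-3p held in all 7 alternative fits of its table. The miR-155-5p call and the miR-125b-5p call in SP-A2 females were lost with the replicate block (limma adjusted p = 0.109 for both), and miR-125b-5p was lost with edgeR in SP-A2 females, co-ex females and KO males (edgeR adjusted p of 0.150, 0.185 and 0.334). let-7e-5p was lost in 4 of 11 alternative fits over all tables. With 1 mouse left out at a time, the call of miR-155-5p held in 4 of 8 fits, and those of miR-125b-5p in 3 of 8 (SP-A2 females), 6 of 8 (co-ex females) and 3 of 8 (KO males). miR-181a-5p and miR-181b-5p passed in none of these tables.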

How the data were processed

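Small RNA libraries of AM from 45 mice were sequenced and counted by the authors. Per the labels' processing notes they used CASAVA and edgeR, and the study's methods name edgeR and TCC. The aligner, miRNA reference and genome build are not given in the sources used here. The deposited tables, 1 for each genotype and sex, hold a normalised signal for each miRNA and mouse. Every deposited signal was a whole multiple of 1 step per mouse (tolerance 1e-06), so reads were recovered by dividing by that step. The tables' columns of p-values, q-values and ranks of the authors' comparisons were not used. All mouse columns were used.

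O3 was compared with FA within tables, over tables (table as a term) and between tables (interaction) with limma 3.58.1 (trend) on log2(value + 1). Levels between tables used limma on log2(TMM-scaled RPM + 1), scaled for each pair of tables on the miRNAs listed in both. edgeR 4.0.16 and DESeq2 1.42.0 on recovered reads (R 4.3.3) were alternatives. P-values were adjusted by Benjamini-Hochberg over all miRNAs of a fit, with an FDR of 0.1. Other alternatives were pseudocounts of 0.1 and 10, a filter on values under 10, median-ratio rescaling, leaving out each mouse or table, and the replicate number as a block. The scripts were tested on simulated counts. Replicates are separate mice. The 4 members, the other arms, the immune list (by counts, at most 4 by value) and the 5 miRNAs most like 181a and 181b are named. Members and lists were chosen with earlier results of these data known. Precision is limited by 137965 to 2884013 reads per mouse.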

Additional observations from a re-analysis of the deposited data

Results flagged for a closer look

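In 7 of the 33 groups of 4 mice with values that differ, 1 mouse stood apart from the other 3 for a member: its distance to the nearest of them, divided by the range of the group, was over Dixon's critical value for 4 samples. By chance about 1 in 20 groups of normally distributed values would do so, a rate that does not carry over to groups with most mice at 0 or 1 read. All 7 were the highest mouse of their group.

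For miR-181b-5p, KO male 2 after O3 had a normalised value of 1104.7 (499 reads), against 456 for the next mouse. For miR-181c-5p, KO female 1 after FA had 24.4 (33 reads) against 1.69, and KO female 3 after O3 had 196 (219 reads) against 42.6.

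The other 4 were for miR-181d-5p. Co-ex male 2 after FA had 99.9 (160 reads) against 0.618, and co-ex female 4 after FA had 317 (255 reads) against 1.54. Co-ex female 1 after O3 had 18.0 (16 reads) against 0.737, and KO female 1 after FA had 25.8 (35 reads) against a next value of 1 read. The other mice of these 4 groups had at most 1 read each.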

How the results depend on the processing

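Depth limits miR-181c-5p and miR-181d-5p, whose groups hold many mice at or near 0 reads. miR-181a-5p and miR-181b-5p had at least 532 and 85 reads in every mouse. The call of miR-181a-5p between SP-A2 and co-ex males after O3 is the only one, and the filter on low values took the number of level calls from 1 to 0.

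Over all tables, the number of members called went from 0 to 1 with median-ratio rescaling (miR-181a-5p, -0.44) and without the table of KO females (-0.41). Leaving out single mice gave -0.37 to -0.30 for miR-181a-5p and 1.54 to 2.21 for miR-181c-5p, with miR-181a-5p gaining a call in 2 of 45 fits and miR-181c-5p in 1. Within 1 genotype, chosen after seeing the data, 28 (SP-A2), 13 (co-ex) and 20 (KO) miRNAs were called beside 56, miR-181b-5p turned to 0.27 in SP-A2 mice and miR-181d-5p to -1.35 in co-ex mice. These fits hold fewer mice, and the part of that in the changes was not tested.

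Some differences that did not pass changed sign. In SP-A2 males miR-181c-5p was 0.11 with edgeR and 0.10 with DESeq2. In SP-A2 females miR-181b-5p was -0.0097 and -0.0274. In KO females miR-181a-5p was -0.0252 with edgeR, -0.0448 with DESeq2 and -0.10 with median-ratio rescaling. The response of miR-181a-5p, co-ex males minus females, was 0.0928 with rescaling, and SP-A2 minus KO males was 0.12. The level of miR-181a-5p, co-ex males minus females after O3, was 0.0068 with edgeR and 0.0138 with the filter, and SP-A2 minus co-ex females after FA was -0.0229 with DESeq2 size factors. The cause was not tested.

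Leaving out single mice, the sign changed for these ranges within tables: SP-A2 males, miR-181c-5p -0.99 to 0.59 and miR-181d-5p -0.46 to 0.36. In SP-A2 females the ranges were -0.22 to 0.12 (miR-181a-5p), -0.19 to 0.36 (miR-181b-5p) and -0.67 to 1.69 (miR-181c-5p). In co-ex mice they were -0.54 to 0.44 (miR-181b-5p, males), -2.19 to 0.0334 (miR-181d-5p, males) and -2.15 to 0.81 (miR-181d-5p, females), and in KO females -0.17 to 0.20 (miR-181a-5p) and -0.52 to 0.30 (miR-181b-5p). For the response of miR-181a-5p they were -0.52 to 0.022 (SP-A2 males minus females), -0.22 to 0.0933 (co-ex males minus females), -0.35 to 0.19 (SP-A2 minus KO males) and -0.24 to 0.13 (SP-A2 minus KO females). For its level they were -0.0072 to 0.37 (SP-A2 males minus females after O3), -0.16 to 0.10 (co-ex, same), -0.11 to 0.37 (KO, same) and -0.11 to 0.32 (SP-A2 minus co-ex females after FA). The ratio of miR-181a-5p to miR-181b-5p in KO females ran from -0.37 to 0.47.

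The numbers of all miRNAs called within tables moved with the tool. Beside 3, 4, 0, 4, 17 and 0 (SP-A2 males, SP-A2 females, co-ex males, co-ex females, KO males, KO females), edgeR gave 5, 2, 0, 0, 16 and 0, and DESeq2 54, 26, 5, 14, 41 and 2. For levels, 112 calls in all became 65 with edgeR. None of these tools called a member within a table.

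Deviations of same-numbered FA and O3 mice correlated between -0.14 and 0.27. Mice of different numbers were not set beside them, so whether replicate numbers pair the mice was not tested. With the replicate block the within-table counts were 1, 0, 0, 5, 24 and 2, the difference over all tables was -0.31 for miR-181a-5p, and 3 differences of uncalled members turned: miR-181b-5p in co-ex males (0.0784), and for miR-181a-5p the response (0.034) and the level after O3 (0.0518) of co-ex males minus females. No call of a member changed.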
